A study of Homo sapiens with 24 samples.

Results

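The 43 genes described here encode the human machinery that licenses DNA replication origins and copies DNA at the fork. They were chosen by name and not by a rule on their measured values, although earlier results of these data were known. Each was matched to 1 Ensembl gene ID of the deposited count table through the Gencode annotation of hg19, so that they make up 43 of the 20345 genes of that table. By role they fall into the origin recognition complex (ORC1 to ORC6), the licensing factors CDC6 and CDT1 with their inhibitor geminin (GMNN), the MCM helicase (MCM2 to MCM7), the factors that assemble and hold the active helicase (CDC45, GINS1 to GINS4, MCM10, TICRR and WDHD1), 9 subunits of the replicative polymerases, the sliding clamp PCNA with its loader (RFC1 to RFC5), the Okazaki fragment enzymes FEN1 and LIG1, and the single-strand binding complex (RPA1 to RPA3).

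The study asked which mRNAs change their association with polysomes when LSM14A, an RNA-binding protein of cytoplasmic RNA granules, is depleted during replication stress. A2058 cells, an established human melanoma line, received a scrambled control siRNA (siCTRL) or siRNA against LSM14A (siLSM14A), at 20 nM according to the methods. They were then left without treatment (NT) or exposed to 10 mM hydroxyurea (HU) for 2 h. HU inhibits ribonucleotide reductase and so depletes the nucleotides that the fork needs. The 4 conditions, siCTRL NT, siCTRL HU, siLSM14A NT and siLSM14A HU, had 3 replicates each. For each condition and replicate number, a total RNA library and a polysomal library were sequenced. These 12 pairs are treated as 12 cultures below, although the labels do not state that both libraries came from the same culture. Polysomal RNA was pooled from the densest part of a sucrose gradient, which holds mRNAs carrying many ribosomes. Cycloheximide, which holds ribosomes on mRNA, was added to all cultures before lysis. The methods name A2058 for this experiment, whereas the legend of the paper's plot of translation changes names A375 cells. All groups are a single cell line, and the labels do not say whether replicates were separate cultures, so p-values measure the spread between these samples, which may be technical.

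Before S phase, the origin recognition complex marks origins, and CDC6 and CDT1 load the MCM2 to MCM7 ring onto DNA, where it stays inactive. Geminin binds CDT1 and blocks further loading after S phase has begun. At the start of S phase, CDC45 and the GINS complex join the MCM ring to form the active helicase, polymerase alpha with its primase lays down primers, and polymerases epsilon and delta extend them on the clamp PCNA while RPA covers the exposed single strands. Forks stall when hydroxyurea depletes nucleotides, and excess MCM complexes on chromatin are known to serve as backup origins in such cells.

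The 24 libraries held 24789280 to 44897501 counts (median 34650473), and all 43 genes passed the filter on low counts in every comparison. In total RNA, LSM14A was at 81.6, 85.1 and 86.1 CPM (counts per 1000000 counts of the scaled library) in siCTRL NT and at 7.30, 8.31 and 6.95 CPM in siLSM14A NT. With HU it was at 80.9, 91.0 and 85.9 CPM in siCTRL and at 6.60, 7.69 and 6.14 CPM in siLSM14A. The targeted mRNA was thus about as low in every siLSM14A library, with a log2 change of -3.49 ± 0.07 (SE, edgeR adjusted p = 1.91e-09) in NT cells and of -3.67 (adjusted p = 8.41e-11) in HU cells. The melanocyte lineage genes SOX10 (at least 549.6 CPM), PMEL (at least 306 CPM), DCT (at least 653 CPM) and MITF (at least 115 CPM) were present in all 12 total RNA libraries. MLANA was lower, at 5.48 to 10.2 CPM. The epithelial and leukocyte genes EPCAM, CDH1, KRT5 and PTPRC were at 0.217 CPM or less in total RNA. Libraries differed in how a gene's level, relative to its mean over the libraries of the same fraction, followed the GC content of its exons: Spearman's rho over genes ran from -0.55 to 0.40 in total RNA and from -0.77 to 0.62 in polysomal RNA. Those trends moved with several differences between conditions below, and each count was therefore also obtained after a GC correction of every library. The corrected counts are given below for some comparisons only.

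In untreated control cells the 43 mRNAs spanned levels from 3.72 to 152 RPKM (CPM per kilobase of the canonical transcript, mean of 3 libraries of total RNA). PCNA, the ring that tethers polymerases to DNA, was highest at 152 ± 1.77 RPKM (SD, n = 3), followed by MCM7 at 137 ± 1.08 RPKM. FEN1, the nuclease that trims Okazaki fragment flaps, and POLD2, an accessory subunit of polymerase delta, came next at 113 ± 1.79 and 112 ± 7.04 RPKM and did not differ beyond their spread. At the lower end stood ORC4 at 3.72 ± 0.37 RPKM, below TICRR (4.17 ± 0.10 RPKM) and WDHD1 (4.23 ± 0.35 RPKM), which also overlapped each other.

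Levels within each role group were uneven, also in the MCM ring and the RPA complex, whose subunits act together in fixed proportions. In the MCM ring, MCM7 was highest and MCM5 (31.3 ± 0.93 RPKM) lowest. Within the origin recognition complex, ORC5 (19.9 ± 0.90 RPKM) was highest and ORC4 lowest. Geminin, at 68.7 ± 4.68 RPKM, exceeded CDC6 (23.7 ± 0.58 RPKM) and CDT1 (19.8 ± 1.24 RPKM), the pair of factors that load the helicase. Among the helicase assembly factors CDC45 (19.4 ± 0.85 RPKM) was highest and TICRR, which helps to recruit CDC45, lowest. POLD2 led the polymerase subunits, with POLE2, an accessory subunit of polymerase epsilon, lowest at 6.73 ± 0.04 RPKM. The clamp PCNA stood far above its loader subunits, of which RFC2 was at 77.9 ± 4.55 RPKM and RFC5 lowest at 18.6 ± 1.27 RPKM. LIG1, which seals Okazaki fragments, was at 17.6 ± 1.01 RPKM. In the RPA complex, RPA2 was at 53.5 ± 0.78 RPKM and RPA3 at 19.99 ± 0.71 RPKM.

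These orders depended on the length used. Per kilobase of all annotated exons, a length chosen after the data had been seen, PCNA stayed highest at 138 RPKM, MCM7 came to 68.0, POLD2 to 22.6 and GMNN to 35.02 RPKM, and ORC4 stayed lowest at 2.73 RPKM.

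**Figure D1:**
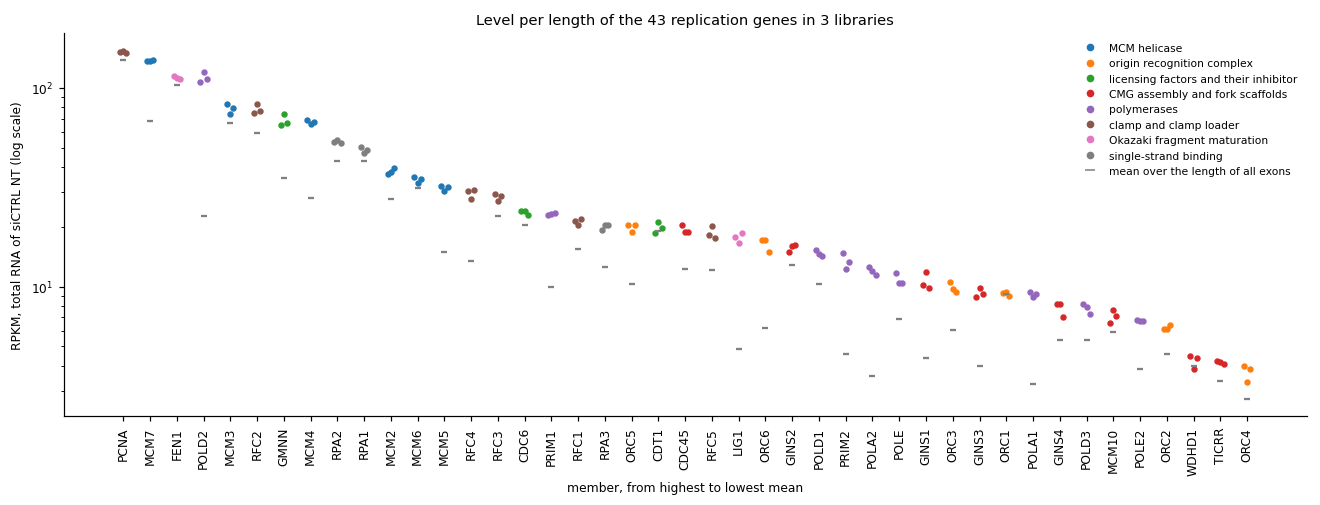
Level of the 43 mRNAs in total RNA of siCTRL NT cells, as RPKM on a log axis, with members ordered by their mean and coloured by role. Points are the 3 libraries and grey dashes are means over the length of all exons. The points run from about 152 RPKM for PCNA to 3.72 RPKM for ORC4, and the dash of POLD2 lies at 22.6 RPKM.

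Most of the replication mRNAs were higher in polysomal than in total RNA. In the fit of polysomal against total RNA over all 12 cultures, 25 of the 43 members (58.1%) were higher in polysomal RNA, 10 (23.3%) were lower and 8 did not pass an adjusted p of 0.05, with a median log2 ratio of 0.34. Over all 12855 genes tested, 84.4% passed, with 40.2% higher and 44.2% lower and a median of -0.06. After GC correction, 37 members (86.0%) were higher and 2 (4.65%) lower, against 35.9% and 42.5% of all genes, so that the share of higher calls among the members' calls went from 71.4% to 94.9%. The culture as a block pairs the total and polysomal library of the same condition and replicate number. These pairs rest on the labels, since deviations from group means correlated above 0.1 for all 3 numbers in siLSM14A HU only. With this block, 24 members were higher and 11 lower, with no share of all genes given. ORC4 (adjusted p = 0.0589) and PCNA (0.0573) then lost their calls, and ORC3 (-0.22, 0.0444) and WDHD1 (-0.35, 0.0257) gained one. The ratio is relative to the average gene of each fraction and does not count ribosomes. In bulk RNA, fewer cells of a type and less RNA per cell cannot be told apart, which here holds for cell cycle phases.

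In the MCM helicase, all 6 subunits were higher in polysomal RNA, both before and after GC correction, with a median log2 ratio of 1.27. Without the correction MCM5 had the highest ratio of all members, 1.86 ± 0.09 (SE, adjusted p = 3.19e-14), which is 3.64-fold. With it MCM5 came to 1.35, below POLA1 and PRIM2 (both 1.43). Over the 12 cultures its log2 ratio was 1.37 at the lowest, 1.80 at the median and 2.56 at the highest. MCM2 followed at 1.85 ± 0.10 (3.61-fold, adjusted p = 2.21e-13), with 1.21, 1.80 and 2.51 as lowest, median and highest culture. MCM7 reached 1.58 ± 0.08 (2.99-fold, adjusted p = 5.33e-14), with cultures from 1.11 to 2.16. The ratios of MCM3 (0.96), MCM4 (0.64) and MCM6 (0.53) were smaller, although the proteins form the same ring. GC correction narrowed these differences, with MCM2 at 1.29, MCM7 at 1.004, MCM6 at 0.98, MCM4 at 0.78 and MCM3 at 0.77.

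The other complexes were split. In the origin recognition complex only ORC1, the subunit whose protein level is regulated in the cell cycle, was higher (0.68 ± 0.07), ORC2 (-0.18) and ORC4 (-0.14, adjusted p = 0.0489) were lower, and ORC3, ORC5 and ORC6 did not pass; after GC correction the values of ORC2 to ORC6 were all above 0, from 0.35 to 0.76. Of the licensing factors, CDT1 was 2.44-fold higher in polysomal RNA (log2 1.29 ± 0.08) and CDC6 less so (0.29), an order that GC correction turned (0.50 for CDT1 and 0.68 for CDC6). Geminin was lower, at -0.34 ± 0.05, and turned to 0.19 after GC correction. Of the 8 helicase assembly factors, CDC45 (0.88, corrected 0.46), GINS2 (0.53, corrected 0.31) and TICRR (0.22, but -0.11 and not called after GC correction) were higher. MCM10, which helps to activate the helicase, and GINS4 were lower under both, at -0.48 and -0.15 without and -0.14 and -0.20 with the correction.

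Among the polymerases, the catalytic subunits of polymerases delta and epsilon, POLD1 and POLE, were 2.84-fold and 2.83-fold higher in polysomal RNA. Their log2 ratios moved from 1.505 to 0.72 and from 1.499 to 0.98 with GC correction. The subunits of polymerase alpha and primase differed: POLA2 (1.15, corrected 1.11), POLA1 (0.84, corrected 1.43) and PRIM2 (0.70, corrected 1.43) were higher, and PRIM1 was lower (-0.16) but at 0.28 after GC correction. POLD3, a subunit that polymerase delta also uses in break-induced replication, was lower at -0.39 ± 0.06 (0.765-fold, adjusted p = 7.66e-06), while after GC correction it was at -0.01 and not called. RFC1, the largest subunit of the clamp loader, had the lowest ratio of all members at -0.54 ± 0.12 (0.688-fold, adjusted p = 1.88e-04), with cultures from -1.35 to -0.02. It came to -0.07 and was not called after the correction.

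PCNA itself was close to the average gene, at 0.10 (adjusted p = 0.0268) and 0.35 after GC correction, and did not pass with the culture block (adjusted p = 0.0573). LIG1 was 2.93-fold higher (log2 1.55 ± 0.08, corrected 1.02) and FEN1 was at 0.81 (corrected 0.41). RPA1 (0.78) and RPA2 (0.53) were higher, while RPA3, the smallest subunit, did not pass (-0.11, and 0.40 after GC correction). Across single cultures, 23 members had a ratio above 0 in all 12, 5 (MCM10, ORC2, GMNN, RFC1 and RFC3) had one below 0 in all 12, and 15 lay on both sides. The shares over all genes were not computed, so these counts only describe the members.

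Among the members, the ratio followed the base composition of the coding sequence. Across 42 members, Pearson's r between the log2 ratio and the share of codons with G or C at the third position (GC3) was 0.83 and Spearman's rho was 0.82, where over 12707 genes tested they were 0.57 and 0.59. PRIM2 was left out because its coding sequence is incomplete in the annotation used. With the GC content of all exons, r was 0.77 over 43 members and 0.64 over 12855 genes. With the logarithm of coding length, r was 0.39 over the members and 0.01 over 12798 genes. Genes share libraries and are not independent replicates, and the GC trend of the libraries is part of what these points share, so the values are descriptions. The median exonic GC of the members was 45.3%, against 47.7% of the genes tested.

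The coding starts of the 3 members with the highest ratio and of POLD3 and MCM10, with low ratios, show how composition differs. Each line gives the leading 150 coding bases of the canonical transcript from hg19, spliced and read 5′ to 3′ on the gene's strand, with capitals for a G or C at the third position of a codon. MCM5 lies at chr22:35796432-35796581 (+), within 1 exon. The others span introns: MCM2 at chr3:127317310-127318304 (+), MCM7 at chr7:99697338-99698917 (-), POLD3 at chr11:74303704-74315770 (+) and MCM10 at chr10:13206203-13213064 (+).
MCM5: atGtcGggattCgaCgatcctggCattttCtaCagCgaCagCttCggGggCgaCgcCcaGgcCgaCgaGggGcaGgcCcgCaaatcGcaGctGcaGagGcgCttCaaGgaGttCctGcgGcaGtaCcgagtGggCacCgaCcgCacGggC
MCM2: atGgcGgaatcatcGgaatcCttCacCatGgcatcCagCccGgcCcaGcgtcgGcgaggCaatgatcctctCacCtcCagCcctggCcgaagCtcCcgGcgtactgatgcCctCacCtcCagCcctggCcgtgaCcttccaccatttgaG
MCM7: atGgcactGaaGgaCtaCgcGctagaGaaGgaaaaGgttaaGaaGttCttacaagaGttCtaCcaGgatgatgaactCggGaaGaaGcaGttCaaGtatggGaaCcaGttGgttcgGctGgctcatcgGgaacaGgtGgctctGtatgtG
POLD3: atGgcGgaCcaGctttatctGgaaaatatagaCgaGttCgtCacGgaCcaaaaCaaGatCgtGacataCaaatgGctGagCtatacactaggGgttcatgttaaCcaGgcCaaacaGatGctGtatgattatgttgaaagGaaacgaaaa
MCM10: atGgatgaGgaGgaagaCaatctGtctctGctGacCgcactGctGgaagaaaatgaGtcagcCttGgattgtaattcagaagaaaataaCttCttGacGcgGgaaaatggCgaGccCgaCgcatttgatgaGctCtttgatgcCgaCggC
Of these 50 codons, 44 end in G or C in MCM5, 30 in MCM2 and 34 in MCM7. The counts were 27 in POLD3 and 27 in MCM10, so MCM2 and MCM10 are close over this stretch although their ratios are far apart. Over the whole coding sequence, which the correlation used, GC3 was 79.8% in MCM5, 77.3% in MCM2, 64.7% in MCM7 and 44.2% in POLD3. MCM10 lay between MCM7 and POLD3, so MCM2 and MCM10 were not close over that length.

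**Figure D2:**
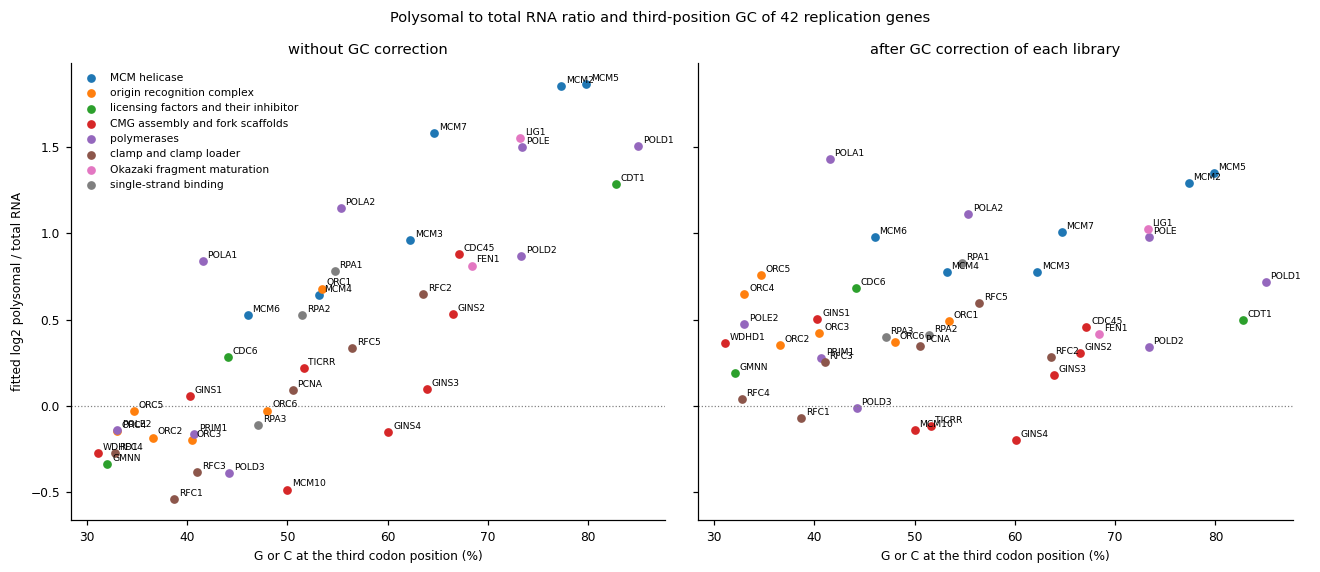
Fitted log2 ratio of polysomal to total RNA against the percentage of codons with G or C at the third position, for 42 members coloured by role, without GC correction on the left and after it on the right. On the left the points rise from lower left to upper right (r = 0.83). On the right fewer lie below 0, and POLA1 has the highest corrected value, 1.43.

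A question of the design was whether depletion of LSM14A changed these mRNAs. In total RNA of untreated cells, 0 of 43 members passed an adjusted p of 0.05 with edgeR and 0 with DESeq2, while 71 of 12544 genes tested (0.566%) did with edgeR. At an unadjusted p under 0.05 there were 5 members (1 higher, 4 lower), or 4 with DESeq2, beside 10.8% of all genes. The member changes ran from -0.16 to 0.14 on the log2 scale, with a median of 0.01. The smallest p belonged to ORC2 among higher values (0.14 ± 0.06, adjusted p = 0.416) and to MCM7 among lower values (-0.14 ± 0.05, adjusted p = 0.34).

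In total RNA of HU-treated cells, again 0 of 43 members passed with edgeR or DESeq2, beside 100 of 12475 genes (0.802%), and 2 members had an unadjusted p under 0.05, both lower (2 with DESeq2), beside 8.54% of all genes. ORC6, a subunit of the origin recognition complex that also acts in cell division, was at -0.29 ± 0.08 (adjusted p = 0.204), and POLA2 was at 0.12 ± 0.06 (adjusted p = 0.616). Same-numbered replicates of siCTRL HU and siLSM14A HU deviated from their group means with weak positive correlations (r = 0.331, 0.177 and 0.245). When the fit held the replicate number as a block, ORC6 (-0.29, adjusted p = 0.000702) and ORC4 (-0.21, adjusted p = 0.0202) passed. With block and GC correction together only ORC6 did (-0.28, adjusted p = 0.00332).

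Averaged over NT and HU, 1 of 43 members passed in total RNA, beside 397 of 12666 genes (3.13%), and 5 members, all lower, had an unadjusted p under 0.05 beside 15% of genes. That member was ORC6 (ENSG00000091651, chr16:46723555-46732306, hg19), which fell by 0.22 ± 0.06 on the log2 scale (SE, adjusted p = 0.045). Its total RNA CPM were 27.7, 27.9 and 24.2 in siCTRL NT and 22.4, 23.4 and 25.6 in siLSM14A NT. With HU they were 28.6, 24.4 and 26.1 in siCTRL and 22.5, 20.1 and 22.6 in siLSM14A. The groups overlapped in NT cells, where the third siLSM14A library exceeded the lowest siCTRL library, and did not overlap in HU cells.

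This ORC6 difference was small and its call was not firm. It lost the threshold without any of 9 of the 12 libraries (adjusted p = 0.0624 to 0.114), and passed without siCTRL NT 3, siCTRL HU 2 or siLSM14A NT 3, with log2 values between -0.26 and -0.19 throughout. With all libraries it passed with DESeq2, the replicate block, GC correction and both together (adjusted p = 0.0112 to 0.0265). PCNA came next, with 194, 196 and 191 CPM in siCTRL NT and 176, 174 and 183 CPM in siLSM14A NT, and 189, 198 and 194 against 183, 179 and 188 CPM with HU. Each siLSM14A library was below each siCTRL library, at an average log2 difference of -0.11 ± 0.03 (adjusted p = 0.0955), which passed with DESeq2 (adjusted p = 0.0235) and after GC correction (-0.12, adjusted p = 0.0186). Among members with positive average values, RFC3 had the smallest p (0.07 ± 0.04, adjusted p = 0.483).

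Total RNA hardly moved with HU. In siCTRL cells, 0 of 43 members passed and 0 had an unadjusted p under 0.05 with edgeR, nor any with DESeq2, beside 0.0% and 1.44% of 12506 genes. The members stayed between -0.08 (POLE) and 0.10 (PRIM2), with the smallest p on either side for these genes (both adjusted p = 1.0). In siLSM14A cells, 0 passed by edgeR or DESeq2 and 4 had an unadjusted p under 0.05 (1 higher, 3 lower; 3 with DESeq2), beside 0.0% and 5.2% of 12497 genes. CDC45, which travels with the helicase, was at 0.15 ± 0.06, and ORC3 at -0.19 ± 0.07 (both adjusted p = 0.855).

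Averaged over both siRNAs, 0 members passed in total RNA and 0 had an unadjusted p under 0.05 with edgeR, nor with DESeq2, beside 0.0% and 4.06% of 12666 genes, and the smallest p were those of POLD1 (0.08) and ORC5 (-0.09, both adjusted p = 0.996). The difference between the HU effects of the siRNAs was tested directly as an interaction. It passed for 0 of 43 members with edgeR and DESeq2, and 2 members had an unadjusted p under 0.05 (2 with DESeq2), beside 0.0% and 2.9% of genes. These were CDC45 (0.19 ± 0.08) and ORC3 (-0.24 ± 0.10), both at an adjusted p of 1.0.

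CDC45 was at 38.4, 35.6 and 35.6 CPM in siCTRL NT and 37.6, 34.5 and 34.2 CPM in siCTRL HU, so these overlapped. In siLSM14A it was at 33.7, 32.9 and 34.8 CPM without HU and at 38.1, 37.5 and 37.6 CPM with it, which did not overlap. Beside this, the HU change in siLSM14A total RNA followed exonic GC with Spearman's rho of 0.73 over the members and 0.55 over 12497 genes. The part of that trend in the CDC45 values was not tested.

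Polysomal RNA varied far more between replicates than total RNA. The coefficient of variation over the 12 libraries of a fraction had a median of 13.98% over the members in polysomal RNA (7.78% for RPA2 to 39.0% for WDHD1) and of 4.998% in total RNA (2.85% for CDC6 to 10.7% for ORC6). The members' CPM summed to 5612 to 7874 in polysomal and to 3480 to 3643 in total libraries. Differences between conditions in polysomal RNA therefore had to be larger to pass.

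Upon LSM14A depletion, 0 of 43 members passed in polysomal RNA of NT cells and 0 had an unadjusted p under 0.05 with edgeR, nor with DESeq2, beside 0.0162% and 1.96% of 12342 genes. TICRR (0.21 ± 0.19) and MCM3 (-0.24 ± 0.18) had the smallest p on either side. In HU cells the counts were also 0 and 0 by edgeR and DESeq2, beside 0.0653% and 4.99% of 12256 genes. WDHD1, a scaffold that ties polymerase alpha to the helicase, was at 0.50 ± 0.26 (adjusted p = 0.739) and POLE at -0.26 ± 0.16. WDHD1 polysomal CPM were 13.5, 15.5 and 26.5 in siCTRL HU and 28.7, 19.1 and 29.9 in siLSM14A HU, which overlapped.

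Averaged over NT and HU, the LSM14A effect in polysomal RNA passed for 0 members and had an unadjusted p under 0.05 for 0 with edgeR, nor with DESeq2, beside 0.128% and 4.29% of 12515 genes. ORC2 was at 0.23 ± 0.11 (adjusted p = 0.982) and POLE at -0.25 ± 0.15. ORC6 polysomal CPM were 27.96, 25.9 and 25.5 in siCTRL NT and 24.9, 24.9 and 23.8 in siLSM14A NT, and 26.7, 23.3 and 22.3 in siCTRL HU and 21.2, 21.7 and 21.7 in siLSM14A HU. In polysomal RNA each siLSM14A library of ORC6 was thus below each siCTRL library of the same treatment, whereas in total RNA the NT groups overlapped. The average polysomal difference of ORC6 did not reach an unadjusted p of 0.05 with edgeR. The share of all genes that separate this way was not computed.

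HU in siCTRL cells left 0 of 43 members past the threshold in polysomal RNA with edgeR and DESeq2, and 1 with an unadjusted p under 0.05 (3 with DESeq2), beside 0.0% and 2.1% of 12315 genes. That member was TICRR, at 0.45 ± 0.19 (adjusted p = 0.933), and GINS1 had the smallest p among lower values (-0.24 ± 0.17). In siLSM14A cells 0 passed and 0 had an unadjusted p under 0.05 with edgeR, nor with DESeq2, beside 0.0% and 0.871% of 12290 genes. Here LIG1 was at 0.34 ± 0.17 and ORC4 at -0.32 ± 0.19.

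Averaged over both siRNAs, HU left 0 members past the threshold in polysomal RNA with edgeR and DESeq2, while 4 had an unadjusted p under 0.05 (LIG1, TICRR and POLD1 higher, PCNA lower; 6 with DESeq2), beside 0.0% and 2.26% of 12515 genes. LIG1 was at 0.38 ± 0.14 and PCNA at -0.20 ± 0.08 (both adjusted p = 0.999). The interaction passed for 0 members and had an unadjusted p under 0.05 for 0 with edgeR, nor with DESeq2, beside 0.0% and 1.07% of genes, with GINS4 at 0.30 ± 0.22 and CDT1 at -0.35 ± 0.25 (both adjusted p = 0.954).

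Polysomal LIG1 was at 181, 119 and 127 CPM in siCTRL NT and 189.7, 235 and 158 CPM in siCTRL HU. It was at 133, 124 and 128 CPM in siLSM14A NT and at 180.1, 189 and 120.5 CPM in siLSM14A HU. The highest library under either siRNA was from HU cells, but NT and HU overlapped. The third siLSM14A HU library (120.5 CPM) was below all siLSM14A NT libraries. PCNA ran the other way, from 219, 209 and 215 CPM in siCTRL NT to 199, 200.2 and 175 CPM in siCTRL HU, and from 211, 216 and 204 CPM in siLSM14A NT to 177, 173 and 199.5 CPM in siLSM14A HU, without overlap under either siRNA. The average effect did not pass for either gene, and the share of all genes that separate this way was not computed.

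**Figure D3:**
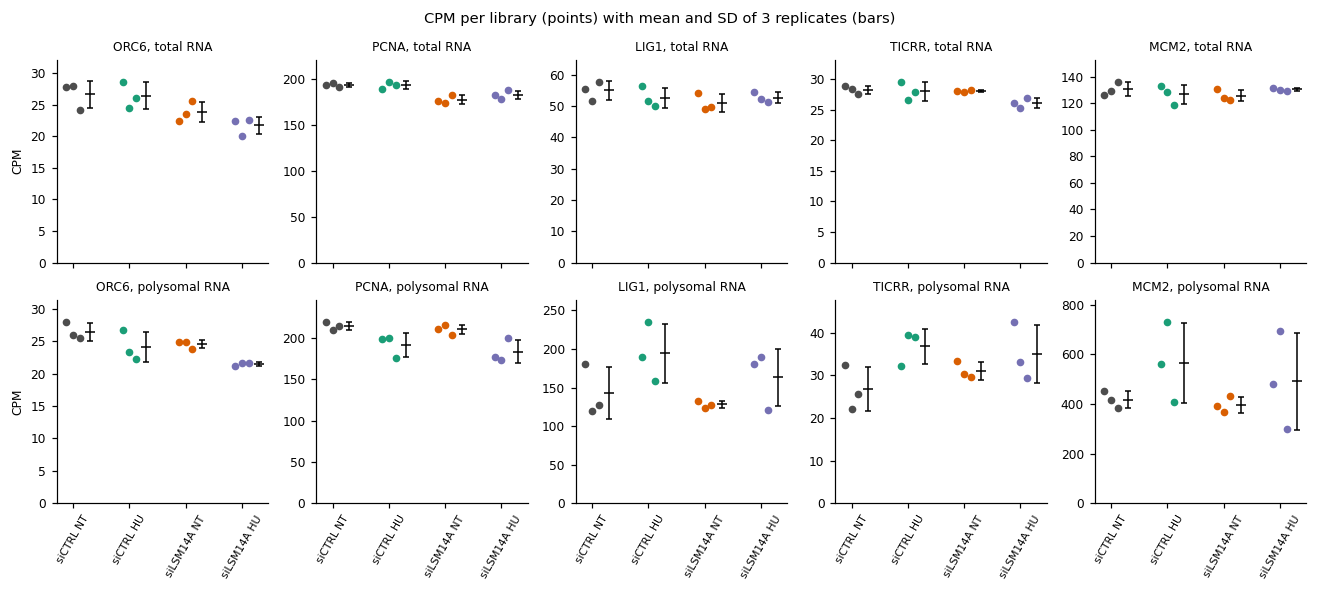
CPM of ORC6, PCNA, LIG1, TICRR and MCM2 in each library, total RNA above and polysomal RNA below, on linear axes from 0. Points are libraries and bars are the mean and SD of 3 replicates. In total RNA the conditions lie close together, with MCM2 between 119 and 136 CPM, while polysomal MCM2 spreads from 299.7 to 729.9 CPM.

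The ratio of polysomal to total RNA (translation efficiency, TE) was tested by asking whether the 2 fractions changed unequally between conditions. With siLSM14A, TE passed for 0 members and had an unadjusted p under 0.05 for 0 in NT cells with edgeR, nor with DESeq2, beside 0.0% and 0.87% of 12757 genes, with TICRR at 0.22 and GINS3 at -0.17. In HU cells the counts were 0 and 0 by both tools, beside 0.0% and 3.85% of 12649 genes, with ORC3 at 0.34 ± 0.17 (adjusted p = 0.778) and POLD2 at -0.23 ± 0.14. The average over NT and HU gave 0 and 0 by both tools, beside 0.0% and 1.09% of 12855 genes, with RFC4 at 0.20 and POLE at -0.19.

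With HU in siCTRL cells, TE passed for 0 members with edgeR and DESeq2, and 3 (TICRR, LIG1 and MCM2, all higher; 3 with DESeq2) had an unadjusted p under 0.05, beside 0.0% and 2.31% of 12693 genes. TICRR was at 0.47 ± 0.20 (adjusted p = 0.956), LIG1 at 0.51 ± 0.23 and MCM2 at 0.49 ± 0.23, and GINS1 had the smallest p among lower values (-0.32 ± 0.17). In siLSM14A cells 0 passed and 0 had an unadjusted p under 0.05 with edgeR, and 0 and 1 with DESeq2, beside 0.0% and 1.41% of 12660 genes, with TICRR at 0.28 and PCNA at -0.24 ± 0.12. On average over both siRNAs 0 passed by either tool and 3 had an unadjusted p under 0.05 (3 with DESeq2), beside 0.0% and 1.97% of 12855 genes. These were TICRR (0.38 ± 0.13), LIG1 (0.41 ± 0.16) and PCNA (-0.20 ± 0.08), all at an adjusted p of 1.0. The interaction gave 0 and 0 by both tools, beside 0.0% and 1.9% of genes, with GINS4 at 0.34 and CDT1 at -0.46.

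TICRR illustrates what the replicates allowed. Its polysomal CPM were 32.4, 22.2 and 25.7 in siCTRL NT and 32.1, 39.4 and 38.9 in siCTRL HU, and 33.3, 30.2 and 29.5 in siLSM14A NT and 42.4, 33.2 and 29.3 in siLSM14A HU. Its total RNA stayed between 25.2 and 29.6 CPM. In polysomal RNA NT and HU overlapped under both siRNAs.

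The TE changes of the MCM helicase subunits with HU in siCTRL cells ran from 0.06 to 0.51, but none passed and MCM2 alone had an unadjusted p under 0.05. Polysomal MCM2 was at 453, 414 and 385 CPM in siCTRL NT and 563, 729.9 and 407 CPM in siCTRL HU, which overlapped, as did 393, 367 and 432 CPM in siLSM14A NT with 480.1, 693 and 299.7 CPM in siLSM14A HU. The TE change with HU in siCTRL cells followed exonic GC with Spearman's rho of 0.74 over 43 members and 0.55 over 12693 genes. The TE difference between siLSM14A and siCTRL in HU cells, which shares the siCTRL HU libraries, had rho of -0.81 over the members and -0.64 over 12649 genes. The second siCTRL HU library had the most positive GC trend of the polysomal libraries (rho 0.62), and it held the highest polysomal MCM2, MCM5 (599 CPM) and LIG1 values. The part of this trend in the members' changes was not tested.

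**Figure D4:**
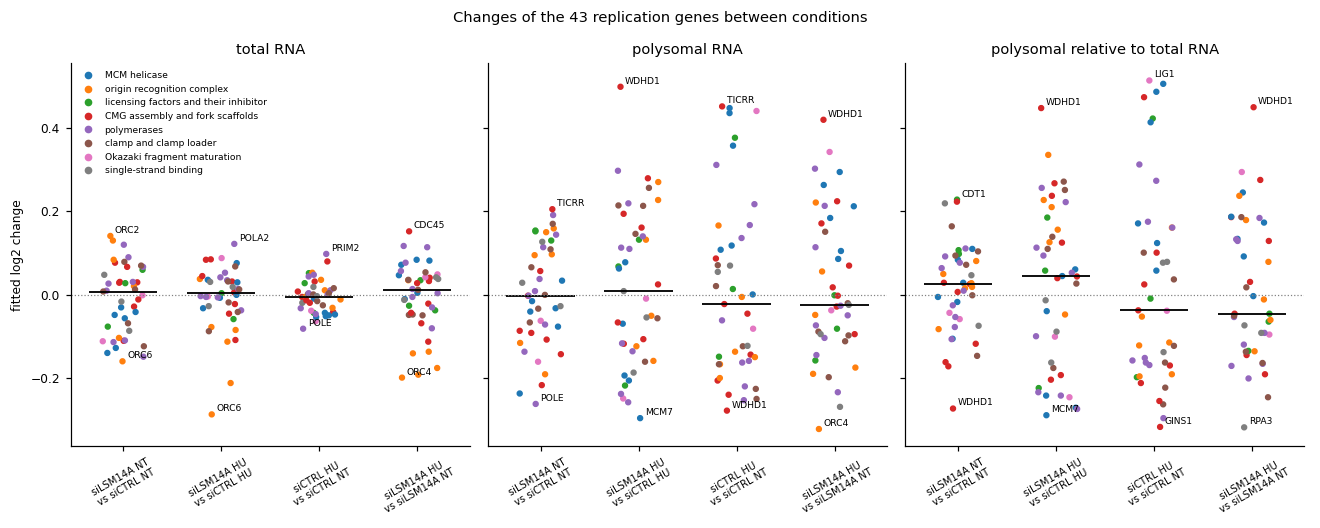
Fitted log2 changes of the 43 members in the 4 pairwise comparisons of conditions, for total RNA, polysomal RNA and their ratio, coloured by role. Lines are medians and the highest and lowest members are named. Total RNA changes lie between -0.29 and 0.15, and those of polysomal RNA reach 0.50 for WDHD1. Of these points none passed an adjusted p of 0.05.

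Of 30 other genes of replication and its control that were listed beside the members, 29 were matched to an ID of the table through the annotation used. In the fit of polysomal against total RNA, 14 were higher, 14 lower and 1 was not called (median 0.10), next to 40.2% higher and 44.2% lower over all genes. In total RNA, 1 of the 29 was lower with siLSM14A in NT cells, in HU cells and on average (0.566%, 0.802% and 3.13% of all genes called). That gene, named after its values were seen, was POLE4, a small histone-fold subunit of polymerase epsilon. Its total RNA CPM were 30.9, 33.6 and 33.8 in siCTRL NT and 24.6, 24.02 and 24.3 in siLSM14A NT, and with HU 34.1, 31.4 and 32.4 in siCTRL and 24.5, 26.2 and 24.8 in siLSM14A. The groups did not overlap under either treatment.

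POLE4 fell by 0.44 ± 0.06 on the log2 scale in NT cells (0.739-fold, adjusted p = 0.00899), by 0.39 ± 0.07 in HU cells (adjusted p = 0.0148) and by 0.41 ± 0.04 on average (adjusted p = 1.69e-05). Leaving out single libraries kept the average call in all cases, while the NT call was lost without siLSM14A NT 2 (adjusted p = 0.0632), siCTRL NT 2 (0.0598) or siCTRL NT 3 (0.0946). The HU call was lost without siLSM14A HU 1 (0.0734), siLSM14A HU 3 (0.0683) or siCTRL HU 2 (0.0519). In polysomal RNA its average difference of -0.46 did not pass (adjusted p = 0.474). The members POLE and POLE2, which encode other subunits of the same polymerase, did not pass in total RNA.

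Some members overlap other genes, which limits what their counts can be assigned to. Exons shared with a gene on the opposite strand made up 23.6% of the exonic length of MCM2, 23.4% of GINS4, 10.6% of RFC5 and 10.9% of GINS3. Exons shared with a gene on the same strand made up 18.3% in PRIM2, 16.8% in POLA2 and 15.1% in PRIM1. The library kit keeps strand, and the strand setting of the counting is not given in the sources used here.

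The proximal promoters of the members were searched for 2 kinds of sequence word, which the choice of genes did not use. E2F factors are known activators of replication genes at the start of S phase. Of the 37 members with a window in the RefSeq promoter table (GRCh38.p14, 250 bases before to 50 after the start, the first window of each gene), 17 (45.9%) held at least 1 of the E2F words TTTCCCGC, TTTCGCGC, TTTGCCGC and TTTGGCGC on either strand. Of 10464 genes tested with a window, 5.34% held such a word, and in the whole table, with 27305 genes, the share was 3.33%. CCAAT on either strand, the word of NF-Y, was in 21 of 37 members (56.8%) and in 36.6% of the tested genes. No window was found for GINS4, MCM4, RPA3, POLD3, RPA2 and MCM5.

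The windows below are those of the 6 members with an E2F word and the highest total RNA level, with the word in capitals, read 5′ to 3′ on the gene's strand. They are chr20:5126654-5126701 (-) for PCNA, chr7:100101557-100101604 (-) for MCM7, chr6:52284889-52284936 (-) for MCM3, chr3:127598393-127598440 (+) for MCM2, chr2:135876568-135876615 (-) for MCM6 and chr13:33818074-33818121 (+) for RFC3, in GRCh38.p14.
PCNA: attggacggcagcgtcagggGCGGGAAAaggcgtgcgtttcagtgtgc
MCM7: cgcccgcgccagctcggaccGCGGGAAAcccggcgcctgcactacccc
MCM3: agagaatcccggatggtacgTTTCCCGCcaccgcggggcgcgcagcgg
MCM2: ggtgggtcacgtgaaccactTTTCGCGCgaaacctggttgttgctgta
MCM6: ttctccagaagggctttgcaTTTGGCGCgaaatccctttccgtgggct
RFC3: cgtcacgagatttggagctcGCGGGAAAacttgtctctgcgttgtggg
The word began 59 bases before the start in PCNA, 187 in MCM7, 174 in MCM3, 152 in MCM6 and 55 in RFC3, and just after the start in MCM2. Binding was not measured in these data, so a match is a description of sequence. In total RNA, none of these 6 members passed in a comparison of conditions in the edgeR fit without GC correction, and PCNA passed with it, as given above.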

How the data were processed

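Total RNA and heavy polysome RNA of 12 cultures, of A2058 cells by the methods, were sequenced with a stranded mRNA kit. According to the methods, the authors aligned trimmed reads with STAR (2.6.1a in the submitters' processing notes, with hg19 as the build) and obtained gene counts on Gencode annotation. The deposited table holds these raw counts, not normalized. Of 20345 IDs, 19086 were protein-coding in the Gencode annotation used here and were tested, 551 had another type and 708 were not in it.

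Counts were tested in R 4.3.3 with the quasi-likelihood F-test of edgeR 4.0.16 (with limma 3.58.1) after TMM scaling and filterByExpr (minimum count 10, minimum total count 15). Pairwise comparisons used the libraries of the conditions compared, averages over conditions and interactions all libraries of the fraction, and TE the term for fraction by condition. Benjamini-Hochberg adjustment ran over all genes tested, with calls at 0.05. Changes are relative to the average gene. For the GC correction, offsets came from loess (span 0.3), fitted per library to log2 CPM over exonic GC. DESeq2 1.42.0, RLE size factors, no filter, all gene types, all conditions in a joint fit, the replicate number or the culture as a block, the GC correction, and each replicate left out were alternatives. Sequence features were computed in Python 3.11.15, with scipy 1.17.1. The fits were tested on simulated data. At a median depth of 34650473 counts per library, the lowest member value was 7.85 CPM. For members with few counts, the SD of 3 libraries can be smaller than the counting error. POLE2, with 320, 455 and 385 counts in total RNA of siCTRL NT, is an example.

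The members, lists and tests were chosen with earlier results of these data known. Named with values are members past the threshold, the member with the smallest p per direction in each comparison of conditions, the 3 highest and 3 lowest ratios, the highest and lowest level per role, and LSM14A. Libraries the report turns on for other members are added as examples, chosen after their values were seen. Whether groups overlap is described for single genes only, and the share over all genes was not computed.

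Replicate pairs (24) had a chi-square per gene of 6.1 to 122 and Pearson's r of 0.978 to 0.996, so none agreed within sampling noise. Whether a replicate number pairs cultures was judged by correlating deviations from group means, and required r above 0.1 for each of the 3 numbers. In total RNA, siCTRL HU met this with siCTRL NT (0.27, 0.25, 0.18) and with siLSM14A HU (0.33, 0.18, 0.24). In polysomal RNA, siCTRL HU met it with siCTRL NT (0.25, 0.18, 0.45). Among the other groups, total siLSM14A HU met it with total siCTRL NT (0.28, 0.20, 0.16), which were not compared, with polysomal siLSM14A HU (0.17, 0.15, 0.24) and with polysomal siCTRL NT (0.21, 0.15, 0.22). Total and polysomal RNA did not meet it in siCTRL NT (0.126, 0.159, 0.058), siCTRL HU (0.116, 0.058, 0.142) and siLSM14A NT (-0.308, 0.115, -0.231). The labels do not say what a number shares. Xtail, which the authors used, was not used here. The sequence of 1 coding start is not reported here.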

Additional observations from a re-analysis of the deposited data

How the results depend on the processing

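For siLSM14A against siCTRL in HU total RNA, the count went from 0 to 2 with the replicate block and to 1 with block and GC correction. For the average siLSM14A effect in total RNA it went from 1 (ORC6) to 2 (ORC6 and PCNA) with DESeq2, with GC correction and with block and GC correction, and ran from 0 to 1 when each replicate was left out. With the replicate block ORC6 passed there (adjusted p = 0.0265) and PCNA did not (0.0516). The block changed no other count of members called between conditions. By the labels, cultures of different conditions shared only a replicate number.

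With GC correction, and with block and GC correction, the ratio of polysomal to total RNA changed sign for GMNN (0.19 and 0.19), ORC2 (0.35 and 0.35), ORC3 (0.42 and 0.42), ORC4 (0.65 and 0.65), ORC5 (0.76 and 0.76), ORC6 (0.37 and 0.37, and 0.004 with RLE and with DESeq2), POLE2 (0.47 and 0.47), PRIM1 (0.28 and 0.28), RFC3 (0.26 and 0.25), RFC4 (0.040 and 0.041), RPA3 (0.40 and 0.39), TICRR (-0.11 and -0.12) and WDHD1 (0.37 and 0.36). The correction removes the trend with GC by construction. With DESeq2 and with RLE, 26 members were higher and 8 lower. Without single replicates, 24 to 25 were higher and 7 to 12 lower. The shares of all genes in these settings are not given, so these counts show only how the members' calls moved.

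Over all genes, total RNA calls for siLSM14A in NT cells went from 71 to 200 with DESeq2, 45 with block, 119 with GC correction, 131 with all conditions in the fit, and 28 without siCTRL NT 3. In HU cells they went from 100 to 189 with DESeq2, 855 with block, 159 with GC correction and 647 with both, and to 46 without 1 library. The average went from 397 to 732, 653 and 927 with block, GC correction and both, and to 264 without siCTRL NT 3. HU in siCTRL total RNA went from 0 to 1 with DESeq2, 15 with block, 26 with block and GC correction and 6 without siCTRL NT 1, and HU in siLSM14A to 6 without siLSM14A NT 3. In polysomal RNA, siLSM14A in NT cells went from 2 to 8 with DESeq2, 4 without a filter, 5 with GC correction and 7 with all conditions, in HU cells from 8 to 22 with DESeq2, 40 with block and 17 with both, and on average from 16 to 38, 34 and 42 with DESeq2, GC correction and block with GC correction. TE calls for HU in siLSM14A cells went from 0 to 16 without siLSM14A NT 1. The causes were not tested.

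Each condition had 3 replicates and polysomal libraries spread widely, so pairwise polysomal and TE changes of up to 0.51 on the log2 scale, and larger interactions, were not called. A missed threshold does not show that a member was unchanged. The order of levels depends on transcript length, and overlapping genes limit MCM2, GINS4, PRIM2, POLA2 and PRIM1.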
